A study of Mus musculus with 6 samples.

Results

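The 38 genes described here encode enzymes that place or remove methyl groups on histones, together with subunits of 1 of the enzyme complexes. They were taken by gene symbol from the 33924 genes of the table, and all 38 were found. Methyltransferases and complex subunits made up 24 of them and demethylases 14. RNA came from RPE/choroid, the retinal pigment epithelium and the vascular layer beneath it, of wild-type C57BL/6J mice that are all labelled male. There were 3 young mice of 1 to 2 months and 3 aged mice, which the titles give as 20 to 24 months and the time label as 22 to 24 months, and the labels name no treatment or transgene. In its methods the study lists male and female mice and an older young group, so sex and young age are uncertain. Ribosomal RNA was removed and total RNA was sequenced without selection for poly(A) tails.

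Methylation of histone tails is written by enzymes that transfer a methyl group from S-adenosylmethionine, most of them through a SET domain, and erased by flavin-dependent amine oxidases or by oxygen-dependent enzymes with a JmjC domain. Methylation of lysine 4 and lysine 36 of histone H3 (H3K4 and H3K36) marks active promoters and transcribed gene bodies, and that of lysine 9 and lysine 27 (H3K9 and H3K27) marks repressed chromatin. The Polycomb enzymes that methylate lysine 27 are known for keeping developmental genes silent in differentiated cells.

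Each gene has 1 usable value, the authors' mean normalized count over the 6 libraries, young and aged together. No value per mouse was analysed here, so neither a replicate error nor a depth per library is given. The authors' own comparison of the ages was not used, and each value below is a level over both ages. To compare genes, this mean was divided by the length in kb of the gene's longest protein-coding transcript, and the result is referred to as the level. The deposited mean was larger for longer genes: its median was 259.6 normalized counts among the 2305 genes with the shortest transcripts and 1067 among the 2305 with the longest, for genes with a mean of at least 10. Division by length left medians of 219 and 144 per kb. The study's methods start from TPM, a transcript abundance already corrected for length, and turn them into normalized counts. The growth with length was taken as the mark of a count, but if some correction remained in the deposited means, division by length would correct them again, and the authors' means and the results without division apply instead. Each level was also computed with the mean transcript length and with the coding length, and the ranges given with an order show how far the choice of length moves it. They hold no sampling error and no difference between mice.

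The tissue label was compared with marker genes. The RPE retinoid isomerase Rpe65 stood at 23481 normalized counts per kb, Rlbp1 at 14034 and Ttr at 83745, and 8 of 9 RPE markers were above the median of protein-coding genes. The exception was the channel gene Best1, at 33.6. All 5 endothelial, 4 fibroblast and 4 macrophage markers were also above that median. So were the rod photoreceptor markers Sag (7658), Gnat1, Pde6b and Nrl and all 3 skeletal muscle markers, with Acta1 at 12062. The 5 genes listed as melanocyte markers were above it as well. They are pigment genes that the RPE also expresses, so they do not tell melanocytes from RPE. The proliferation markers Mki67 (28.6) and Top2a (61.3) were below it. The levels are therefore those of a mixed tissue, and the part that each cell type has in the levels of the histone methylation genes was not tested. In such a bulk sample, fewer cells of a type and less RNA per cell cannot be told apart.

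All 38 genes were above 0, and together they held 0.264% of the summed means. Their levels ran from 22.3 to 550.1 per kb, a 24.6-fold range, with a median of 223. The median of the 16442 protein-coding genes with a mean above 0 was 109.9. Above that median lay 29 of the 38 genes, where 50% of all genes lie by definition. With the longest transcript, 0 genes lay at or above the 90th percentile, 11 lay between the 75th and the 90th percentile, 18 between the 50th and the 75th, 9 between the 25th and the 50th, and 0 below the 25th. This split moved with the length used. Nsd1 was at percentile 93.3 with the mean transcript length and Setd7 at 94.7 with the coding length. Ehmt2 and Kdm1a fell from 86.7 and 85.3 with the longest transcript to 71.6 and 71.5 with the coding length. Without division, Nsd1 (97.8), Ash1l (95.2), Kdm5a (93.8), Setd7 (93.8) and Setd2 (92.6) were above the 90th percentile. Most of these genes thus had RNA levels above the median, and how far above it depended on the length used. With each of the 3 lengths, 26 genes stayed above the median and 8 below it, and the other 4 (Ezh2, Prmt6, Carm1 and Smyd3) crossed it.

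Reads from stretches that genes share cannot always be assigned with certainty. The 31-base words of each gene's transcripts were therefore compared with those of all other genes, on either strand. Words that match the opposite strand count as shared too, although a stranded library can tell such reads apart. Shared words of the same and of the opposite strand were not separated. Under 5% of the words were shared for 27 of the 38 genes. The levels of the other 11, and the ratios and sums built on them, may be less certain. In these genes the shared part was 52.6% for Setd1a, 34.8% for Smyd2, 24.3% for Carm1, 23.8% for Kdm2b, 22.9% for Prmt6, 15.3% for Suv39h1, 12.2% for Prmt1, 11.8% for Setdb1, 11.03% for Eed, 9.30% for Kdm1b and 6.90% for Suv39h2. The gene sharing most words had a mean of 2001 normalized counts for Kdm1b (Dek), 831 for Kdm2b, 402 for Carm1 and 324 for Suv39h2, but 3.77 for Setdb1 and 2.22 for Suv39h1. For Setd1a, Smyd2, Prmt6, Prmt1 and Eed it was matched to no value by its name. Such a gene may be absent from the annotation that the authors used. Whether it took reads in their estimate was not tested.

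**Figure D1:**
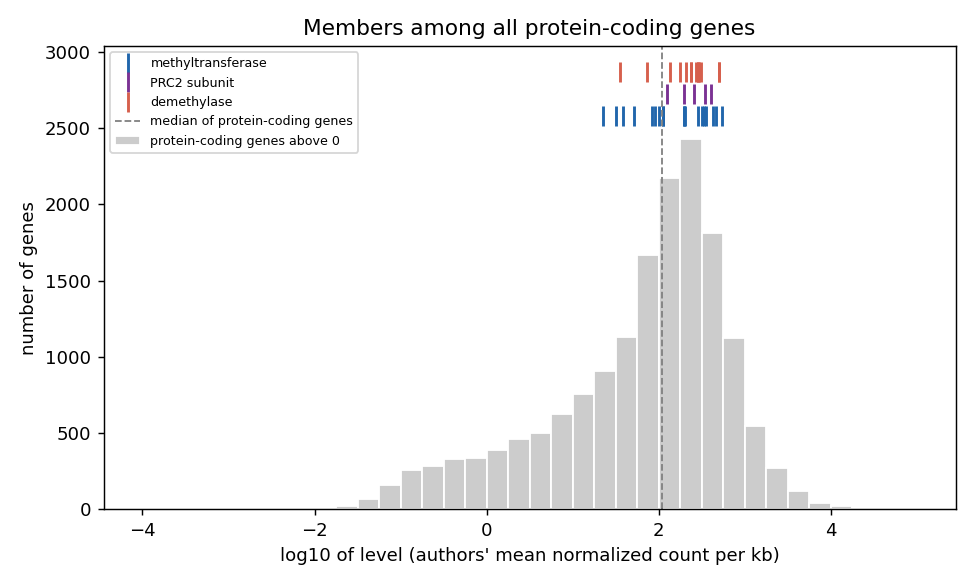
Histogram of the log10 level (authors' mean normalized count per kb of the longest transcript) of 16442 protein-coding genes, with a tick for each of the 38 histone methylation genes, coloured as methyltransferase, Polycomb subunit (PRC2) or demethylase. The ticks lie between levels of 22.3 and 550.1, and 29 are to the right of the dashed median at 109.9.

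Demethylases and methyltransferases overlapped widely. The 14 demethylases had a median of 254.5 per kb, with 12 of 14 above the median of protein-coding genes, and the 24 methyltransferases and complex subunits had a median of 199.5, with 17 of 24 above it. With the longest transcript, the H3K9 methyltransferase gene Ehmt2 was the highest of all and the H3K4 methyltransferase gene Setd1a the lowest, and Kdm1a was the highest and Kdm6b the lowest demethylase gene. The top and the bottom depended on the length used. Nsd1 was the highest with the mean transcript length (1372 against 759 for Ehmt2) and Setd7 with the coding length (2891), Kdm6b (35.96) was below Setd1a (50.4) with the mean length, and Kdm4c (661) was above Kdm1a (583) with the coding length. Where another order is given below without a range, it is that of the longest transcript.

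**Figure D2:**
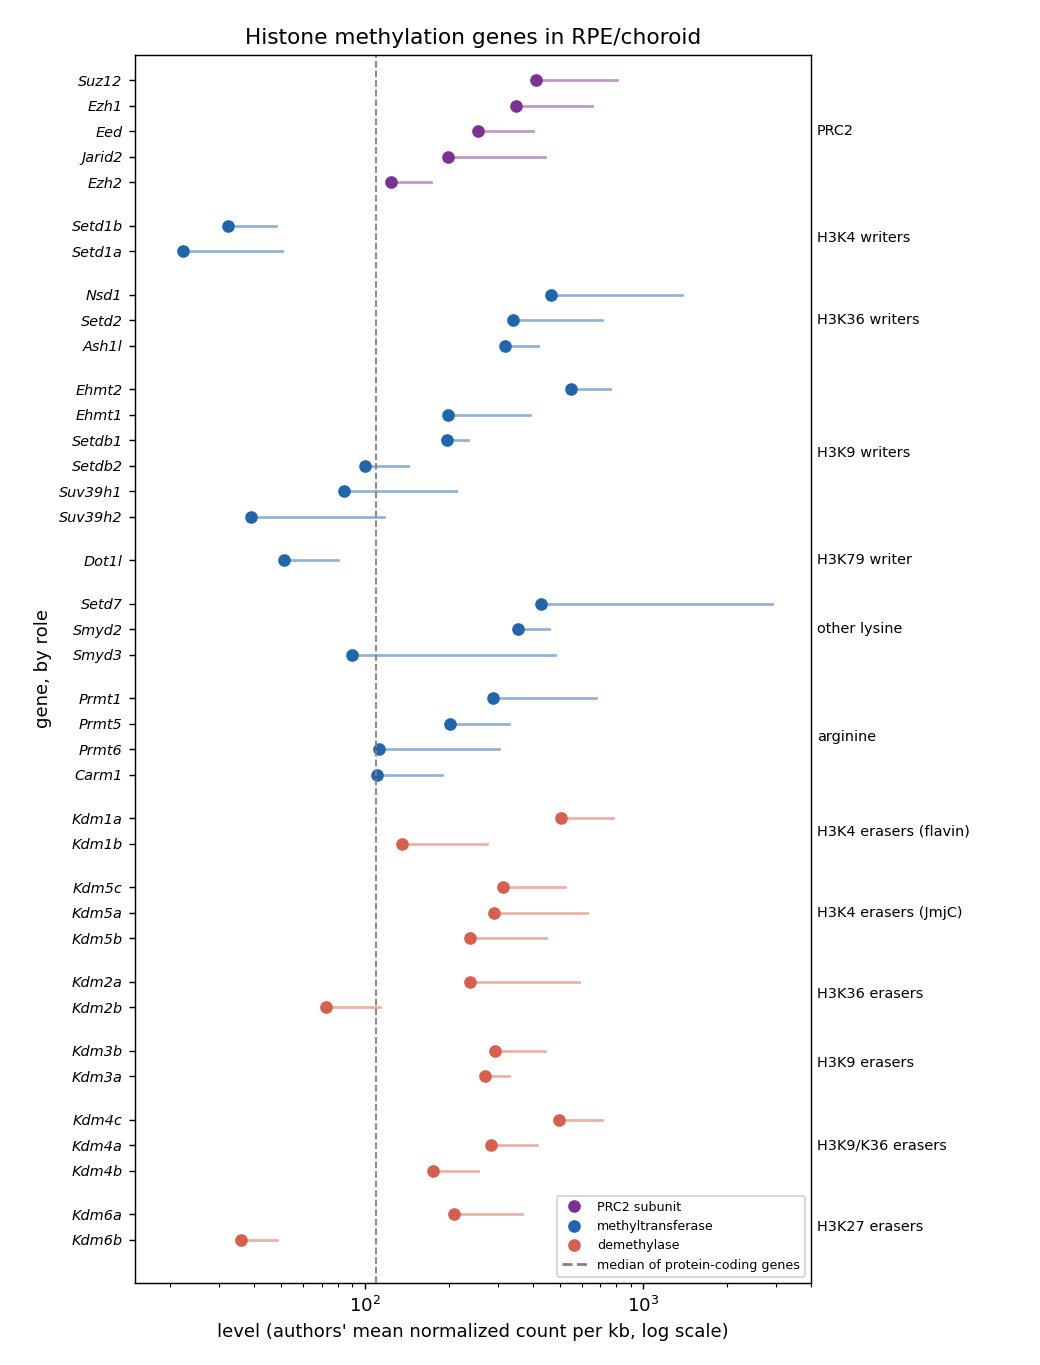
Level of each gene (x axis, authors' mean normalized count per kb, log scale) by role. Dots use the longest protein-coding transcript and lines span the levels with all 3 lengths; the dashed line, the median of protein-coding genes at 109.9, applies to the dots. The SET1 genes Setd1a and Setd1b sit near 22.3 and 32.3, far left of the H3K36 methyltransferases, which start at 318.

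Polycomb repressive complex 2 methylates lysine 27 of histone H3 through Ezh1 or Ezh2, with Suz12 and Eed as core subunits and Jarid2 as an accessory factor. All 5 genes were above the median of protein-coding genes, Ezh2 not with each length. Suz12, the scaffold subunit, on chromosome 11 at 79993106 to 80034123 (GRCm38), had a level of 410 per kb, the highest of the 5 except with the mean transcript length, with which Jarid2 (443) was above it (413). Ezh1, also on chromosome 11 at 101191115 to 101226463, stood at 349. Eed, which binds the methylated tail, had 254 and Jarid2 had 199.5. Ezh2, on chromosome 6 at 47530139 to 47595341, was the lowest of the 5, at 124. The authors' means of the catalytic subunits were 1470 for Ezh1 and 346 for Ezh2. Ezh1, known as the form of non-dividing cells, was therefore 2.81-fold higher per kb than Ezh2, the form of proliferating cells, a log2 ratio of 1.49 that ran from 1.08 to 2.08 over the 3 lengths. Among further partners, the histone-binding subunits Rbbp7 and Rbbp4 stood at 1348 and 637, above the core subunits with the longest transcript. Aebp2 (254), Phf1 (242) and Mtf2 (205) were at the height of Eed and Jarid2, and Phf19 was at 17.9.

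The demethylases that remove the same mark differed from each other. Kdm6a, on the X chromosome at 18162575 to 18279936, stood at 208 per kb, whereas Kdm6b, a gene known for its induction by inflammatory signals, on chromosome 11 at 69398508 to 69413675, stood at 35.96. The gap was 5.80-fold, with a log2 ratio between 2.54 and 3.35 over the 3 lengths. It was the widest of the 14 pairs of paralogues compared with the longest and the mean transcript length. Kdm2a over Kdm2b was slightly wider with the coding length (2.62 against 2.57) and without division by length (2.45 against 2.37). Summed over each pair, Ezh1 and Ezh2 reached 474 per kb and Kdm6a and Kdm6b 244. That is a ratio of 1.94, with log2 values from 0.42 to 1.26 over the 3 lengths. Without division, the authors' means lie closer together, at 1470 and 346 for Ezh1 and Ezh2 and 1237 and 239 for Kdm6a and Kdm6b. The second sum leaves out Uty, the Y-linked counterpart of Kdm6a, which stood at 398, so the ratio holds for these 4 genes only.

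Lysine 4 is methylated by the SET1 and MLL enzymes. Setd1a and Setd1b, the catalytic subunits of the complexes that trimethylate lysine 4 at promoters, stood at 22.3 and 32.3 per kb, with authors' means of 145 and 286, and both were below the median with all 3 lengths. The value of Setd1a, on chromosome 7 at 127776670 to 127800122, may be less certain. Nearly all of its shared words occur in Gm49388, for which no value was matched. The JmjC demethylases of this mark were higher, with 314 for Kdm5c, 290.4 for Kdm5a and 238 for Kdm5b. Their sum, 843, was far above the 54.7 of the SET1 genes, a log2 ratio of -3.95 for SET1 over Kdm5 that stayed between -4.31 and -3.82. This sum holds no MLL gene and is not that of all H3K4 methyltransferases. The flavin-dependent demethylase gene Kdm1a, on chromosome 4 at 136550540 to 136602723, reached 504, which was 3.71-fold above its paralogue Kdm1b at 136 (log2 ratio from 1.09 to 1.89).

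The SET1 genes are not the whole of H3K4 methylation. In the list of further histone methylation genes, the methyltransferase genes of the MLL family stood higher, with 330.1 for Kmt2e, 326 for Kmt2c, 119.8 for Kmt2a and 76.9 for Kmt2b. Kmt2e belongs to the family by sequence but is not known as an active methyltransferase. Kmt2d was not analysed here, because its older symbol is also used for Kmt2b. The partner subunits listed for the SET1 and MLL complexes were above the median of protein-coding genes in 7 of 7 cases, with a median of their own of 255. Wdr82 (535), Ash2l (320.3) and Dpy30 (311) were the highest and Men1 (125), Cxxc1 (237) and Rbbp5 (247) the lowest.

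The 3 methyltransferases of lysine 36 among the 38 genes were above the median of protein-coding genes. In the list of further genes, Nsd2 (237) and Nsd3 (164) were also above it and Setmar (62.3) below. Nsd1, which places the dimethyl mark, on chromosome 13 at 55209782 to 55318325, had the largest mean of all 38 genes, 5951 normalized counts, and a level of 465 per kb. Setd2, the enzyme of the trimethyl mark in transcribed gene bodies, had 339, and Ash1l, which acts on active genes, had 318. All 3 transcripts are long, from 8350 to 12784 bases. Of the demethylases for this residue, Kdm2a stood at 239 and Kdm2b at 72.4, a 3.30-fold difference with a log2 ratio from 1.72 to 2.62. The shared words of Kdm2b, Rnf34 first among the other genes, may make this ratio less certain. The Kdm4 enzymes, which act on lysine 9 and lysine 36, stood at 498 for Kdm4c, 284 for Kdm4a and 176 for Kdm4b. Kdm4c was above Kdm4a, and Kdm4a above Kdm4b, with each of the 3 lengths.

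The H3K9 methyltransferases covered nearly the whole range. Ehmt2 (G9a), on chromosome 17 at 34898469 to 34914052, had 550.1 per kb. Its partner Ehmt1 (GLP), with which it acts as a heterodimer in euchromatin, had 199.6. The difference was 2.76-fold, with log2 ratios of Ehmt1 over Ehmt2 between -1.46 and -0.94. Setdb1, the enzyme that silences transposable elements, stood at 197 and Setdb2 at 100.5, a log2 ratio of 0.97 that ran from 0.72 to 0.97. The enzymes of pericentromeric heterochromatin stood at 84.3 for Suv39h1 and 38.9 for Suv39h2. They were the lowest of the 6 with the longest transcript, but with the coding length Suv39h1 (212) was above Setdb2 (142). Their sum of 123 compares with 749.7 for Ehmt1 and Ehmt2, a 6.08-fold ratio whose log2 value ran from 1.43 to 2.92. The H3K9 demethylases Kdm3b and Kdm3a stood at 293 and 269.9, with log2 ratios of Kdm3a over Kdm3b from -0.54 to -0.10 over the 3 lengths. For the readers of this mark, Cbx1 and Cbx5, which encode heterochromatin proteins, stood at 738.9 and 719.5 per kb, whereas Cbx3 stood at 136. Among the other chromodomain genes of the list, Cbx2 (18.6) and Cbx8 (46.5) were the lowest, and Cbx6 at 285 the highest.

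Other lysine methyltransferases differed from each other, though less firmly. Dot1l, the enzyme for lysine 79, had a mean of 349 and a level of 51.3 per kb, below the median with all 3 lengths. Setd7 stood at 428 and Smyd2 at 354, while Smyd3 stood at 89.99. These enzymes also methylate many proteins other than histones. The transcript of Setd7 is 7411 bases long and its coding part 1098 bases, so its level was 2891 with the coding length. The order of Smyd2 and Smyd3 turned with the length used.

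The 4 arginine methyltransferases lay between the 50th and the 75th percentile. Prmt1, the main enzyme of asymmetric dimethylation, had 289.6 per kb, and Prmt5, the main enzyme of symmetric dimethylation, had 202. Prmt6 (112.8) and Carm1 (111.1) were close to the median of 109.9 and fell below the 50th percentile with another length. Wdr77 and Clns1a, which work with Prmt5, stood at 186 and 495.

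Within families, the same member was higher with all 3 lengths in 11 of 14 pairs, and these 11 kept their order without division by length as well. Sampling error is not part of this count. The exceptions were Setd1a with Setd1b, Kdm5a with Kdm5c and Smyd2 with Smyd3.

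**Figure D3:**
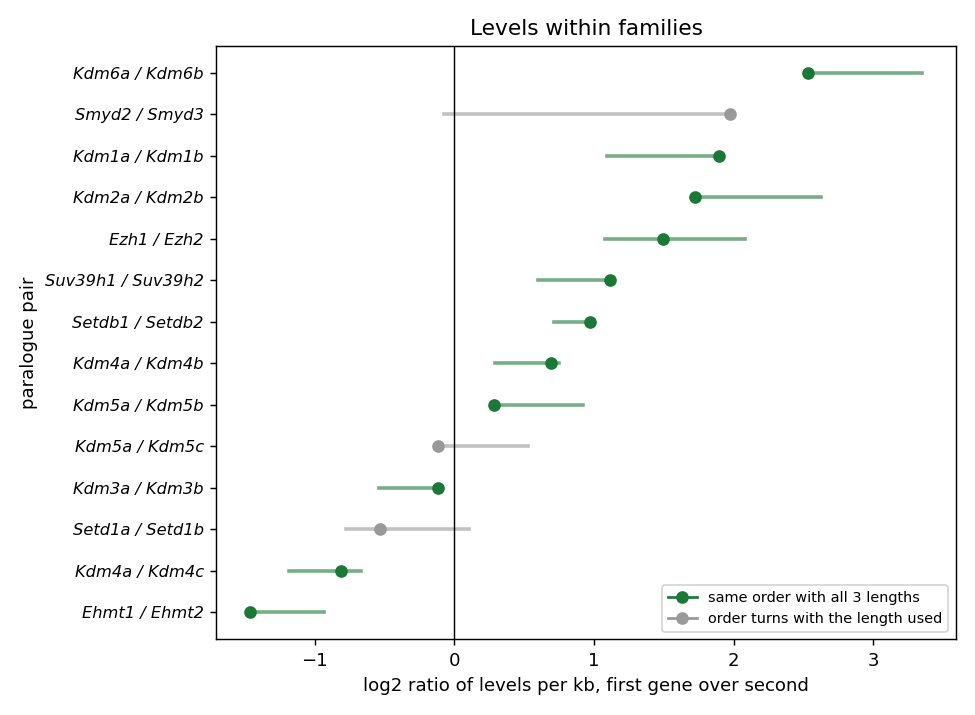
Log2 ratio of the levels per kb of 14 pairs of paralogues, first gene over second. Dots use the longest transcript, and lines span the 3 lengths. The line of Kdm6a over Kdm6b reaches farthest right, from 2.54 to 3.35, and the 3 grey lines cross 0.

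Suv39h1, Kdm5c and Kdm6a lie on the X chromosome. Kdm5c and Kdm6a have counterparts on the Y chromosome, Kdm5d and Uty, which were expressed as well. Kdm5d had a level of 130.8 per kb against 314 for Kdm5c, and Uty had 398 against 208 for Kdm6a. Of the 31-base words of Kdm6a, 1.13% occur in Uty, and of those of Kdm5c, 0.0740% occur in Kdm5d. The 38 genes are spread over 16 chromosomes, and no chromosome carries more than 4 of them.

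The wider list of further histone methylation genes covered 63 genes, of which 62 were matched to the table and 0 of the matched were at 0. Of these, 46 were above the median of protein-coding genes, and their own median was 184.8 per kb. Among the further methyltransferases, Kmt5b (403), Kmt2e and Kmt2c were the highest and Prmt8 (18.2), Prdm9 (27.1) and Setmar (62.3) the lowest. Among the further genes listed as demethylases, Jmjd1c (480), Uty and Jmjd6 (366) were the highest and Kdm4d (7.49), Kdm8 (96.2) and Phf8 (107) the lowest. Whether each of them demethylates histones was not tested. Of the remaining partners, Clns1a, Mllt6 (441) and Mllt10 (237) led and Wiz (40.3), Rcor3 (114.9) and Mllt3 (119.6) closed the order. Wiz works with Ehmt2, Rcor3 with Kdm1a, and the Mllt proteins with Dot1l.

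A feature that the choice by symbol did not use is the sequence at the transcription start. RefSeq windows of 300 bases (250 before and 50 after a start, build GRCm38.p6) were at hand for 28 of the 38 genes, and for each gene the window with the most CpG was taken. The number of CpG ran from 13 to 49 with a median of 28.5, whereas the median of 12652 protein-coding genes above 0 was 18, with quartiles of 8 and 28. The GC box GGGCGG, read on both strands, was found in 17 of 28 windows (60.7%) and in 57.5% of the protein-coding ones. The letters CCAAT, read likewise, were found in 12 of 28 (42.9%) and in 37.4%. The letters TATAAA occurred in 0 of 28 windows and in 9.19% of the protein-coding ones. The GC box overlaps with CpG by its letters. Over all 27025 genes with a window, the shares were 37.3%, 37.4% and 13.7%.

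**Figure D4:**
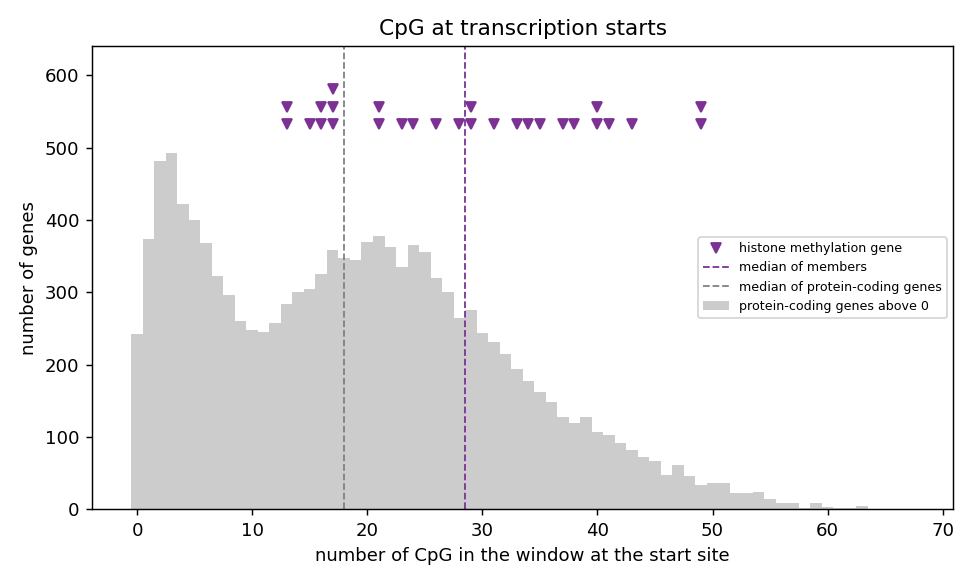
Number of CpG in the 300-base window at the start site (x axis) of 12652 protein-coding genes (grey bars, y axis the number of genes) and of 28 histone methylation genes (triangles, stacked where equal; their height has no value). Dashed lines give the medians, 28.5 for the histone methylation genes and 18 for the protein-coding genes. The triangles run from 13 to 49, within the range of the grey bars.

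The richest and the poorest window are shown by the 250 bases before the start, 5′ to 3′ on the strand of the gene, with each CpG in capitals. Dot1l, on the plus strand at chr10:80754953-80755202, had 49 CpG in its window, as did Kdm2b. Kdm4a, on the minus strand at chr4:118180044-118180293, had 13, as did Kdm5c. Their levels were 51.3 per kb for Dot1l and 284 for Kdm4a.
Dot1l: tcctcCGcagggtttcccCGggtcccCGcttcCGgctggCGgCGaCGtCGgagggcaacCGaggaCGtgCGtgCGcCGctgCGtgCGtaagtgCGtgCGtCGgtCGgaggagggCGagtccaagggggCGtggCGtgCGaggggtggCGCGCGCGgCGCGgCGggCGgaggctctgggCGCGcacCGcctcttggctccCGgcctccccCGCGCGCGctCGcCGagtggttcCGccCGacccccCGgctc
Kdm4a: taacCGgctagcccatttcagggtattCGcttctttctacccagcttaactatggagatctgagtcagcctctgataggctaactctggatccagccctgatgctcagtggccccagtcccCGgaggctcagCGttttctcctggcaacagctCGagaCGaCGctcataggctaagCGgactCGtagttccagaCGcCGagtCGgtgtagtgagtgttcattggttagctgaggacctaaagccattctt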

How the data were processed

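RNA of 6 RPE/choroid libraries was sequenced after rRNA removal with a stranded total RNA kit. Per the study and its labels, the authors used BBDuk for trimming, STAR with the Ensembl GRCm38 transcripts for mapping, Sailfish with default settings for abundance as TPM, a total-count scaling to normalized counts and DESeq2. Sailfish divides reads shared by several transcripts among them by estimation. The deposited value used, a normalized signal (the mean normalized count over all 6 libraries), is 1 number per gene. The 5 other value columns hold the authors' own comparison of young with aged mice (fold change, its error, statistic, p-value and adjusted p) and were not used.

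Levels were computed with Python 3.11.15, numpy 2.4.6 and pandas 2.3.3 as the authors' mean per kb of the longest protein-coding transcript in GENCODE M21 (GRCm38). The authors mapped to a different annotation, an Ensembl release on the same build. Its genes, transcripts and lengths may therefore differ from those used here. Percentiles refer to 16442 protein-coding genes with a mean above 0, from 19109 matched by symbol after leaving out 20 symbols carried by several genes. Older symbols were matched through RefSeq synonyms for 12 genes of the wider list and 1 marker. Words of 31 bases were compared on both strands with the transcripts of all other genes. The level and percentile code was tested on simulated data. The depth of each library is unknown here, and no test was run, since no value per library was analysed. All members, fixed pairs, and the 3 highest and 3 lowest further genes of each role were named, except for genes not reported here. The members and lists were chosen with earlier results of these data known.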

Additional observations from a re-analysis of the deposited data

How the results depend on the processing

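The number of histone methylation genes above the median of protein-coding genes, 29 of 38 as reported, was 28 with the mean transcript length, 28 with the coding length and 32 without division by length. It was 25 among the 13828 genes with a mean of at least 10, and 32 with genes at 0 included.

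Of 42 log2 ratios of paralogue pairs under the other lengths, 6 changed sign, in 3 pairs. Setd1a over Setd1b was 0.10 with the mean transcript length, against -0.53. Kdm5a over Kdm5c was 0.0939 with the mean transcript length, 0.53 with the coding length and 0.65 without division, against -0.11. Smyd2 over Smyd3 was -0.0742 with the coding length and -0.0574 without division, against 1.97. The lengths differ by construction; which transcripts the tissue uses was not tested.

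No paired analysis was possible because only 1 mean over all libraries was analysed for each gene. This also left out the comparison of aged with young mice, other normalizations and tools, fits without a filter and fits without single libraries, which were not run.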
